A study of Arabidopsis thaliana with 6 samples.

Results

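The comparison described here is the change in rosette-leaf transcripts between 1 and 2 h after spraying, as far as it ran the same way in paraquat-sprayed and in mock-sprayed plants. It rests on 4 of the 6 arrays of the series: 1 array of paraquat leaves and 1 of mock leaves at 2 h, set against 1 of each at 1 h. All plants carried the flu1-1 allele in the Landsberg erecta (Ler) background, were 3 weeks old and not yet bolting, and had grown on soil in continuous light. The paraquat groups were sprayed with paraquat in 0.1% Tween, a detergent, and the mock groups with 0.1% Tween alone, so every plant had been handled and wetted. The paraquat dose is 20 mM in the sample titles and 20 microM in the protocol, and which is right is not known here. Unsprayed leaves are not among the groups, so the course of the spray response and the hour of harvest cannot be told apart. Each sample combined leaves from 5 to 6 plants, and each array received RNA pooled from 2 experiments. With 1 array per treatment and hour, the treatments stand in for replicates of the hour.

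In the flu mutant, the loss of a negative regulator of chlorophyll synthesis lets protochlorophyllide build up in the dark, which yields singlet oxygen on return to light; plants kept in continuous light avoid this. Paraquat diverts electrons of photosystem I to oxygen in the light, which yields superoxide. As background, spraying, touching and wind cause a fast and short-lived wave of transcripts in Arabidopsis leaves, in which genes of calcium signalling, wall-loosening enzymes and transcription factors are well known. Plant cells enlarge by loosening a wall of cellulose tied by xyloglucan and other polymers. Receptor kinases such as THESEUS and FERONIA, and small RALF peptides that bind FERONIA, monitor that wall during growth.

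Of 22746 probe sets that are not array controls, 14006 had a signal above 86 on at least 2 of the 4 arrays and were tested. Signals are linear intensities that the authors had scaled to a common level. Changes are on the scale log2(signal + 34), 2 h minus 1 h, a scale that understates the change of dim probe sets. The median signal was 157.7 to 162.0 on the 6 arrays. Across probe sets, r was 0.984 between both arrays of an hour, at 2 h as at 1 h, and 0.963 to 0.970 between arrays of different hours. Among the 4 arrays compared, the paraquat 1 h array stood apart in its 25S ribosomal RNA and actin control probe sets. Its 25S ribosomal RNA control had a signal of 307.7, against 111.4 on the paraquat 2 h array, 130.5 on the mock 2 h array and 124.3 on the mock 1 h array, and its actin 3′ to 5′ ratio was 3.00, against 6.76 to 9.16 on the other 3. The GAPDH 3′ to 5′ ratio set this array less apart, at 1.15 against 0.91 to 1.05 on the other 3. Because of the 25S and actin controls, counts without each array are given beside the results. These fits used all other arrays of the series, both 4 h arrays included. A difference between the treatments at 4 h thus enters their error. On the 4 h arrays the 25S control had a signal of 243.3 in paraquat and 92.8 in mock leaves.

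Among the probe sets that passed the test, more were lower than higher at 2 h and the lower ones had the larger changes, whereas over all tested probe sets small rises were the more common: 5203 were higher and 4198 lower in both treatments. The limma test, with treatment as a block and Benjamini-Hochberg adjustment over all 14006 probe sets, called 1452 (10.4%) at an adjusted p under 0.05, of which 647 (4.62%) were higher and 805 (5.75%) lower. Among the called, 101 were higher and 213 lower by at least 2-fold on average. The median mean change was 0.63 for those called higher and -0.75 for those called lower, against 0.03 for all tested. Every called probe set moved the same way in both treatments, which the test itself favours, against 67.1% of all tested. Both 2 h signals lay above both 1 h signals in 625 of the 647 called higher (27.6% of all tested did so), and below them in 776 of the 805 called lower (21.7% of all tested). Some probe sets passed the signal floor through 1 hour alone and so had to differ: 28 of the 647 had both 1 h signals at or under 86, and 35 of the 805 both 2 h signals. Where a gene named below is of this kind, its values are given with no p and its place in a count is named. With 1 residual degree of freedom the test leans on the variance shared between probe sets. The size of these counts and their split both depended on the fit, with more called lower than higher in each fit given here. A fit on all 6 arrays called 320 higher and 496 lower. Without 1 array the calls fell to 77 higher and 142 lower (mock 1 h left out), 112 and 241 (paraquat 1 h), 137 and 309 (mock 2 h), or 159 and 291 (paraquat 2 h). Hour cannot be told apart from anything else that both treatments of a harvest shared, such as handling, labelling or hybridization.

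A change of at least 2-fold in both treatments was seen in 63 probe sets that were higher (0.45% of those tested) and in 156 that were lower (1.11%), and the test called all of them. At least 3-fold changes in both numbered 11 higher and 39 lower, and at least 4-fold changes 5 and 14. Of probe sets 2-fold lower in paraquat leaves, 68.4% of 228 were also 2-fold lower in mock leaves, and these were 56.5% of the 276 that were 2-fold lower in mock leaves. For higher ones, the shared set was 47.0% of 134 in paraquat leaves and 44.4% of 142 in mock leaves. A single probe set was 2-fold changed in both treatments but in opposite directions. The annotation names exactly 1 gene for 26 of the 63 and 73 of the 156, so many of these transcripts can be given no name here.

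**Figure D1:**
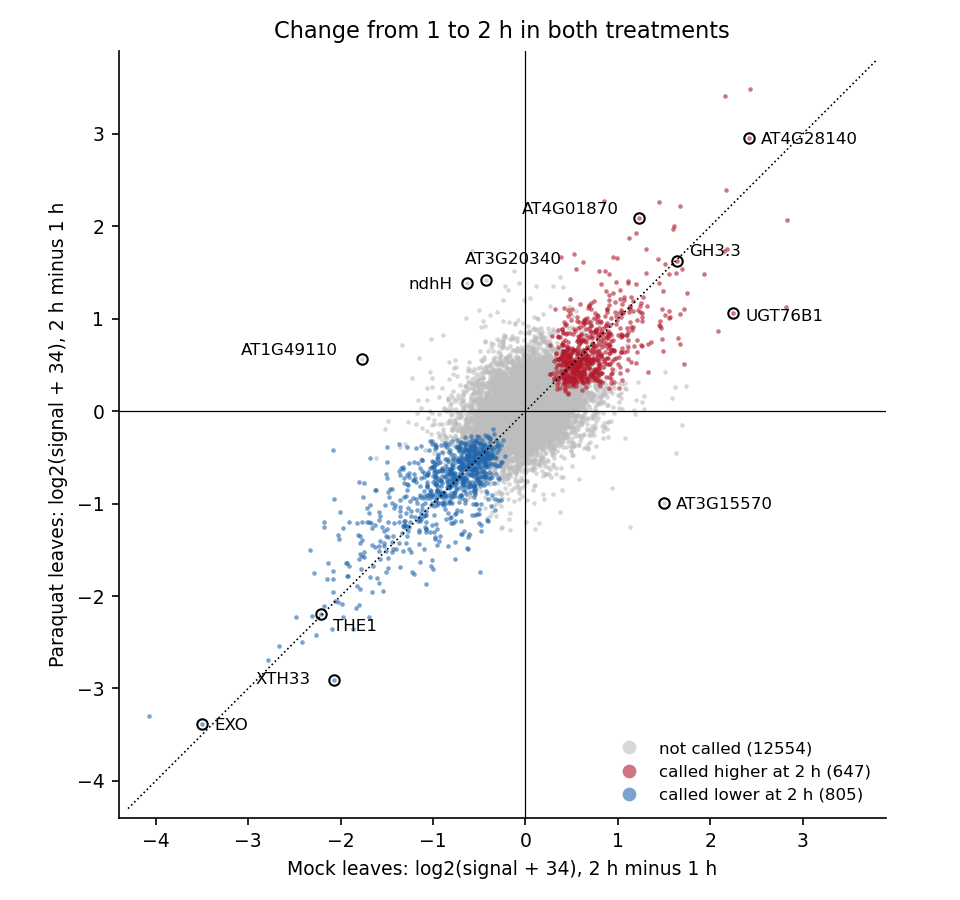
Change from 1 to 2 h in paraquat leaves (vertical axis) against mock leaves (horizontal axis), both as log2(signal + 34), 2 h minus 1 h, for the 14006 probe sets tested. Red points were called higher (647) and blue points lower (805); the dotted line marks equal change, and the lower left arm reaches further from 0 than the upper right one, with EXO at -3.38 in paraquat and -3.50 in mock leaves.

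The named gene with the deepest shared fall was EXO. EXO (EXORDIUM) encodes a secreted protein that promotes brassinosteroid-dependent leaf growth. Its signals were 486 in paraquat and 416 in mock leaves at 2 h, against 5385 in paraquat and 5062 in mock leaves at 1 h, a mean log2 change of -3.44 ± 0.10 (moderated SE from limma, adjusted p = 5.9e-06). The treatments lay close together at each hour, while the hours were 10.9-fold apart on this scale. At 4 h, EXO had signals of 876 in paraquat and 942 in mock leaves, above its 2 h values and far below its 1 h values.

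Both tested receptor kinases of the wall-monitoring CrRLK1L family were lower at 2 h, against 5.75% of all tested probe sets. This family and the RALF and cellulose synthase-like families were taken up only after changes had been seen. Their counts are therefore no independent evidence. THE1, the receptor kinase THESEUS, which acts when cellulose synthesis is impaired, had signals of 411 in paraquat and 477 in mock leaves at 2 h, against 2004 in paraquat and 2336 in mock leaves at 1 h (mean log2 change -2.20 ± 0.11, adjusted p = 4.4e-05 by limma). Both 2 h signals lay far below both 1 h signals, by 4.61-fold on this scale. FER, the receptor kinase FERONIA, moved less: it had signals of 1622 in paraquat and 2098 in mock leaves at 2 h, against 2782 and 2962 at 1 h (mean -0.63 ± 0.10, adjusted p = 0.0074 by limma), and its call was lost without the mock 1 h, paraquat 1 h or paraquat 2 h array. No other member of the family could be tested.

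Of 6 tested RALF peptides, 2 were lower and none higher, against 5.75% and 4.62% of all tested probe sets. RALFL22 had signals of 480 in paraquat and 592 in mock leaves at 2 h, against 1867 in paraquat and 2181 in mock leaves at 1 h (mean -1.86 ± 0.11, adjusted p = 6.6e-05 by limma). RALFL33 had signals of 791 in paraquat and 529 in mock leaves at 2 h, against 2855 in paraquat and 1683 in mock leaves at 1 h (mean -1.71 ± 0.11, adjusted p = 0.00010 by limma). In both peptide genes the hours did not overlap, although RALFL33 was also higher in paraquat than in mock leaves at both hours. RALFL22 stayed low at 4 h, with 538 in paraquat and 524 in mock leaves, and so did THE1, with 525 and 496. The other 4 RALF genes had mean changes between -0.30 and 0.16 and were not called.

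Enzymes and proteins that loosen or build the wall made up the next group. In a list of cell wall expansion genes, 12 could be tested, of which 7 were lower, 2 higher and 3 not called. Among the 7 were XTH33 and EXLA3, which passed the floor at 1 h alone. The shares over all tested probe sets were 5.75% lower and 4.62% higher. Xyloglucan endotransglucosylases, which cut and rejoin xyloglucan chains, were called lower in 4 of 5 tested members, XTH33 included. XTH33 had signals of 50.5 in paraquat and 66.6 in mock leaves at 2 h, against 599 in paraquat and 388 in mock leaves at 1 h (mean -2.49 ± 0.21). Its 2 h signals lay under 86, so the size of this fall is set in part by the pseudocount. XTH18 fell by 1.55, XTH16 by 1.18 and EXGT-A3 by 0.88 on the log2 scale, while XTH32 had a mean change of 0.08 and was not called. EXGT-A3 was high again at 4 h: its signals were 2350 in paraquat and 1994 in mock leaves, above those of 2 h (1148 and 506) and of 1 h (1779 and 1156).

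Expansins, which loosen the wall without cutting it, split in 2 directions. The expansin-like genes fell: EXLA1 had signals of 1639 in paraquat and 1565 in mock leaves at 2 h, against 5867 in paraquat and 6717 in mock leaves at 1 h (mean -1.95 ± 0.10, adjusted p = 4.4e-05 by limma). EXLB1 fell by 0.65 on the log2 scale. EXLA3 had 21.9 in paraquat and 58.9 in mock leaves at 2 h, against 181 in paraquat and 237 in mock leaves at 1 h, and passed the floor at 1 h alone. Among the 6 alpha- and beta-expansins tested, EXPA16 was lower (mean -0.74 ± 0.17), EXPA4 (0.60 ± 0.11) and EXPA8 (0.85 ± 0.19) were higher, and EXPA9, EXPA15 and EXPB3 were not called. The calls of EXPA16, EXPA4 and EXPA8 were each lost when any 1 of the 4 arrays was left out. For the whole cell wall expansion list, 2 members were called lower without the mock 1 h array, 5 without the mock 2 h array, 4 without the paraquat 1 h array and 5 without the paraquat 2 h array, and none was called higher in any of these fits.

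Several cellulose synthase-like genes encode enzymes that make other polysaccharides of the wall. CSLC04, which makes the glucan backbone of xyloglucan, had signals of 1059 in paraquat and 1071 in mock leaves at 2 h, against 2976 in paraquat and 3149 in mock leaves at 1 h (mean -1.49 ± 0.10, adjusted p = 0.00011 by limma). CSLA03, of the mannan synthase subfamily, fell by 1.42 ± 0.13 and CSLD2 by 0.49 ± 0.11 on the log2 scale. These were 3 of 7 tested members, against 5.75% of all tested probe sets called lower, with no member called higher. CSLC04 and CSLA03 were called without each of the 4 arrays in turn, whereas CSLD2 was called in none of those 4 fits.

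**Figure D2:**
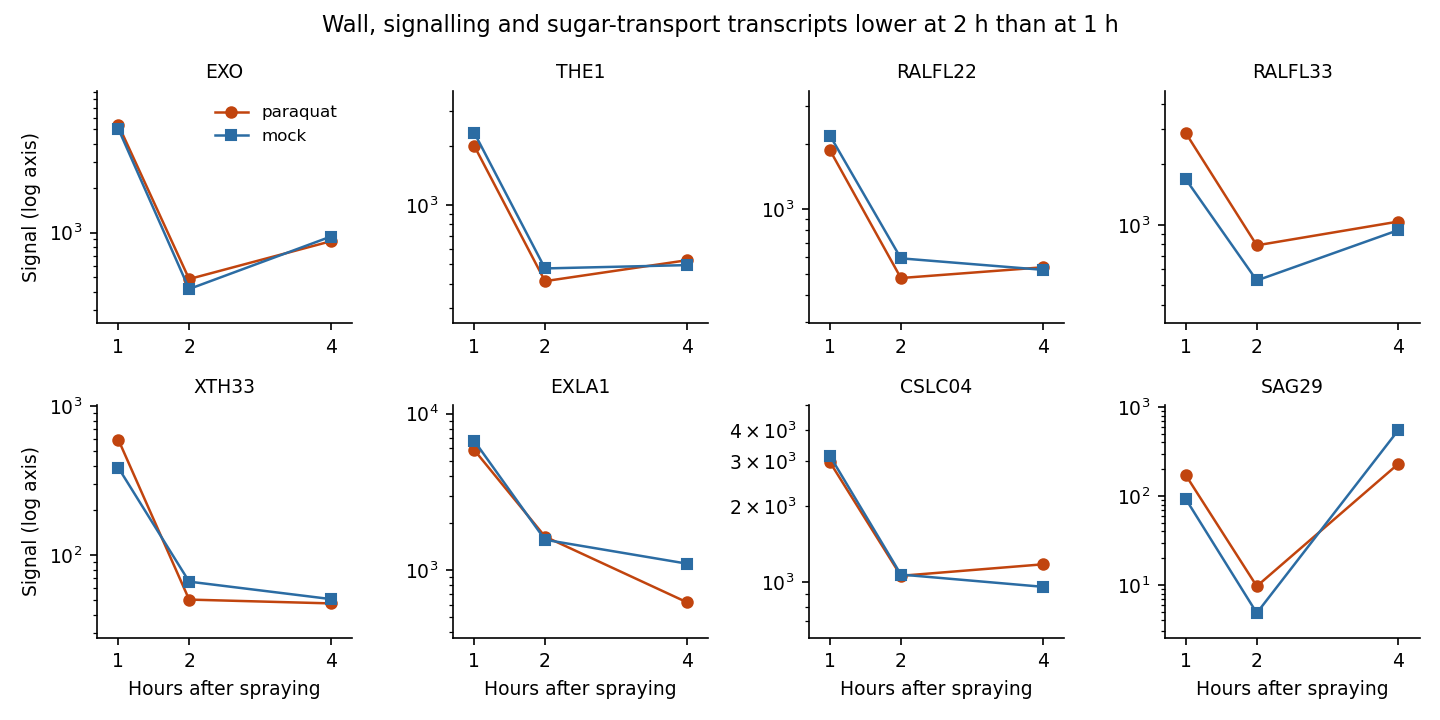
Signals of 8 genes lower at 2 h than at 1 h, on a log axis, over the hours after spraying (1, 2 and 4 h), with 1 array per point (circles paraquat, squares mock). In all 8 panels both 2 h points lie below both 1 h points; at 4 h THE1 and RALFL22 stay low, while SAG29 lies at 230 in paraquat and 553 in mock leaves, above its 1 h signals.

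The remaining named genes with the largest shared falls have varied or unknown roles. AT4G16563 encodes a protein of the aspartyl protease family, and had signals of 272 in paraquat and 352 in mock leaves at 2 h, against 1264 in paraquat and 1494 in mock leaves at 1 h. AT2G44500 and AT5G65470 encode proteins of the O-fucosyltransferase family. Their mean changes were -2.02 and -1.98. AT2G24600 encodes an ankyrin repeat protein and AT2G47440 a protein with tetratricopeptide repeats, with mean changes of -1.85 and -1.86. AT1G17620, AT3G19680, AT1G50040, AT2G30930 and AT3G06070 are named only by locus, with mean changes from -2.35 (AT1G17620) to -1.95 (AT3G06070). All 15 genes with the largest shared falls were called in every alternative that tested them; AT1G50040 and XTH33 passed the floor at 1 h alone and were not tested under a floor on all 4 arrays. Of the probe sets with no gene name, 245757_at fell further than any gene named here (mean -3.69), with signals of 153 in paraquat and 93.3 in mock leaves at 2 h, against 1803 in paraquat and 2111 in mock leaves at 1 h. The next, 247925_at, had 1037 in paraquat and 903 in mock leaves at 2 h, against 6876 and 6413 at 1 h.

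In the touch and wind list, 2 of 3 tested members were lower, XTH18 and CML38, against 5.75% of all tested probe sets, and none was higher. CML38, a calmodulin-like calcium sensor, had signals of 291 in paraquat and 193 in mock leaves at 2 h, against 773 in paraquat and 429 in mock leaves at 1 h (mean -1.17 ± 0.13, adjusted p = 0.0012 by limma). At 4 h, CML38 had signals of 417 in paraquat and 589 in mock leaves. CML42 fell by 0.73 on the log2 scale, and the other 4 of 6 tested calmodulin-like genes were not called. XTH18 was lower still at 4 h, with 206 in paraquat and 39.7 in mock leaves, below its 2 h signals of 745 and 595. Without the mock 1 h array no touch gene was called, and without any other array 1 was. Of the calmodulin-like genes, 1 was called without the paraquat 2 h array and none without each of the other 3.

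Glutamate receptor-like channels pass calcium into plant cells. GLR2.8 had signals of 255 in paraquat and 270 in mock leaves at 2 h, against 578 in paraquat and 608 in mock leaves at 1 h (mean -1.08 ± 0.12, adjusted p = 0.0012 by limma), and GLR1.4 fell by 0.67 on the log2 scale. These were 2 of 5 tested members, against 5.75% of all tested probe sets called lower. Among 6 tetraspanins, small membrane-spanning proteins, TET10 fell by 0.87 and TET8 by 0.65. No member of either family was called higher. Both families were taken up only after changes had been seen, so their counts are no independent evidence. The GLR2.8 call was lost without the mock 1 h array, that of GLR1.4 without any 1 of the 4, and no tetraspanin was called without either paraquat array.

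Plant U-box ubiquitin ligases moved in both directions. PUB22 and PUB23, known as negative regulators of immune and drought responses, were lower. PUB23 had signals of 460 in paraquat and 385 in mock leaves at 2 h, against 908 in paraquat and 748 in mock leaves at 1 h (mean -0.92 ± 0.11, adjusted p = 0.0020 by limma), and PUB22 fell by 0.69 ± 0.14 on the log2 scale. PUB19, a negative regulator of abscisic acid responses, was higher. It had signals of 322 in paraquat and 226 in mock leaves at 2 h, against 59.6 in paraquat and 79.4 in mock leaves at 1 h (mean 1.56 ± 0.21). PUB19 passed the floor at 2 h alone. The 3 genes parted further at 4 h, when PUB19 had 521 in paraquat and 776 in mock leaves and PUB22 had 96.6 and 58.9. The remaining 4 of 7 tested members were not called, while 4.62% of all tested probe sets were called higher and 5.75% lower. PUB19 was not called without either 1 h array, PUB23 was called only without the mock 2 h array, and PUB22 in none of the 4 fits that left out an array.

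The largest shared rise among named genes was that of AT4G28140. It encodes a transcription factor of the AP2/ERF class, a family with many stress-induced members. Its signals were 795 in paraquat and 776 in mock leaves at 2 h, against 72.7 in paraquat and 118 in mock leaves at 1 h (mean 2.69 ± 0.16, adjusted p = 7.5e-05 by limma). The treatments were nearly equal at 2 h and remained so at 4 h, with 887 in paraquat and 805 in mock leaves.

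Of 59 entries in a list of early stress transcription factors, only 4 had a probe set annotated to exactly 1 gene, and these moved little. STZ, a zinc finger repressor induced by salt and cold, had a mean change of 0.61 ± 0.10. The means were 0.50 ± 0.13 for WRKY6 and 0.46 ± 0.11 for WRKY53, and these 3 genes were called higher. Over all tested probe sets, 4.62% were called higher and 5.75% lower. WRKY22 was lower, with signals of 235 in paraquat and 240 in mock leaves at 2 h, against 404 in paraquat and 513 in mock leaves at 1 h (mean -0.85 ± 0.14, adjusted p = 0.0063 by limma). WRKY22 was lower still at 4 h, with 133 in paraquat and 82.4 in mock leaves. Each of these 4 calls was lost when any 1 of the 4 arrays was left out, and no change among the 4 genes reached 2-fold.

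Of 3 tested auxin response genes, 2 were higher, against 4.62% of all tested probe sets. GH3.3, which conjugates auxin to amino acids and is itself induced by auxin, had signals of 421 in paraquat and 444 in mock leaves at 2 h, against 113 in paraquat and 119 in mock leaves at 1 h (mean 1.63 ± 0.14, adjusted p = 0.00031 by limma). Within each hour its signals were nearly equal in both treatments. HAT2, an auxin-induced homeobox factor, had signals of 698 in paraquat and 737 in mock leaves at 2 h, against 313 in paraquat and 358 in mock leaves at 1 h (mean 1.02 ± 0.12, adjusted p = 0.0014 by limma). The third tested member, the GH3 gene WES1, passed the floor at 2 h alone and was not called. It had signals of 89.6 in paraquat and 128 in mock leaves at 2 h, against 32.6 in paraquat and 70.3 in mock leaves at 1 h (mean 0.77 ± 0.23). The 1 tested member of the Aux/IAA family, another set of auxin-induced genes, had a mean change of -0.07 and was not called. GH3.3 was called in all alternatives, and HAT2 in all but the fit without the paraquat 1 h array, in which only GH3.3 was called. The 5 other genes of the list with a probe set had signals too low to be tested.

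Of 3 tested genes in the heat shock list, 2 were higher, against 4.62% of all tested probe sets. AT5G37670, the third, had signals of 95.2 in paraquat and 153 in mock leaves at 2 h, against 114 in paraquat and 84.0 in mock leaves at 1 h, and was not called (adjusted p = 0.61 by limma). AT5G48570 (ROF2), a heat-induced peptidyl-prolyl isomerase that works with HSP90, had signals of 1502 in paraquat and 2050 in mock leaves at 2 h, against 510 in paraquat and 639 in mock leaves at 1 h (mean 1.56 ± 0.11, adjusted p = 0.00015 by limma). Its 4 h signals were 741 in paraquat and 421 in mock leaves. AT5G51440, a small heat shock protein, had signals of 396 in paraquat and 616 in mock leaves at 2 h, against 119 in paraquat and 135.7 in mock leaves at 1 h (mean 1.71 ± 0.15, adjusted p = 0.00043 by limma). At 4 h its treatments parted, with 836 in paraquat and 130 in mock leaves.

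Of 5 tested chaperone partners, 3 were higher and none lower, against 4.62% and 5.75% of all tested probe sets. This family was taken up after changes had been seen. The 3 include AT5G48570, described above, and Hop3, which passed the floor at 2 h alone. Fes1A, which protects HSP70, had signals of 1142 in paraquat and 1827 in mock leaves at 2 h, against 547 in paraquat and 595 in mock leaves at 1 h (mean 1.29 ± 0.14, adjusted p = 0.0012 by limma). Fes1A also parted at 4 h, with 1794 in paraquat and 574 in mock leaves. Hop3, which links HSP70 to HSP90, had signals of 126 in paraquat and 265 in mock leaves at 2 h, against 51.6 in paraquat and 74.4 in mock leaves at 1 h (mean 1.18 ± 0.21). Its relatives Hop1 and Hop2 had mean changes of 0.16 and 0.07 and were not called. Hsp70-2, an abundant chaperone of the cytosol, had a mean change of 0.54 ± 0.10 (adjusted p = 0.011 by limma). That call was lost without the mock 1 h, mock 2 h or paraquat 2 h array. In all 5 called genes of these sets the 2 h signal was lower in paraquat than in mock leaves, and in mock leaves the 4 h signal was below the 2 h signal. No chaperone partner was called without the mock 1 h or the paraquat 1 h array, 1 was called without the mock 2 h array and 3 without the paraquat 2 h array. AT5G51440 was called in 9 of 13 alternatives, with adjusted p up to 0.55; the cause was not tested.

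UDP-glycosyltransferases attach sugars to hormones and secondary compounds. Of 25 tested members, 8 were higher, 2 lower and 15 not called, against 4.62% higher and 5.75% lower over all tested probe sets. UGT71B6 and UGT73B5, which are among the 8, passed the floor at 2 h alone. UGT76B1, which glucosylates immune signals including salicylic acid, had signals of 292 in paraquat and 587 in mock leaves at 2 h, against 122 in paraquat and 97.4 in mock leaves at 1 h (mean 1.65 ± 0.25, adjusted p = 0.0050 by limma). It rose in both treatments, and further in mock leaves, by 2.24 against 1.06 in paraquat leaves. At 4 h the treatments were equal, with 1796 in paraquat and 1794 in mock leaves. UGT71B6, which glucosylates abscisic acid, had signals of 207 in paraquat and 163 in mock leaves at 2 h, against 75.1 in paraquat and 45.2 in mock leaves at 1 h (mean 1.23 ± 0.19).

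UGT73B5, a gene of pathogen and redox responses, differed between treatments at each hour, with 274 in paraquat and 91.2 in mock leaves at 2 h, against 62.6 in paraquat and 30.7 in mock leaves at 1 h (mean 1.31 ± 0.24). UGT73D1 had a mean change of 1.04. The other called members, UGT76E11, UGT76C2 (which acts on cytokinins), UGT84A3 and UGT87A2, had mean changes from 0.48 (UGT87A2) to 0.96 (UGT76E11). The lower members were UGT78D1, a flavonol rhamnosyltransferase, at -0.60 and UGT74D1, which acts on auxins, at -0.57. No member was called without the mock 1 h array, 4 were called higher without either mock 2 h or paraquat 2 h, 3 without paraquat 1 h, and none was called lower in these 4 fits. With no filter on low signals 1 member was called higher and none lower.

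**Figure D3:**
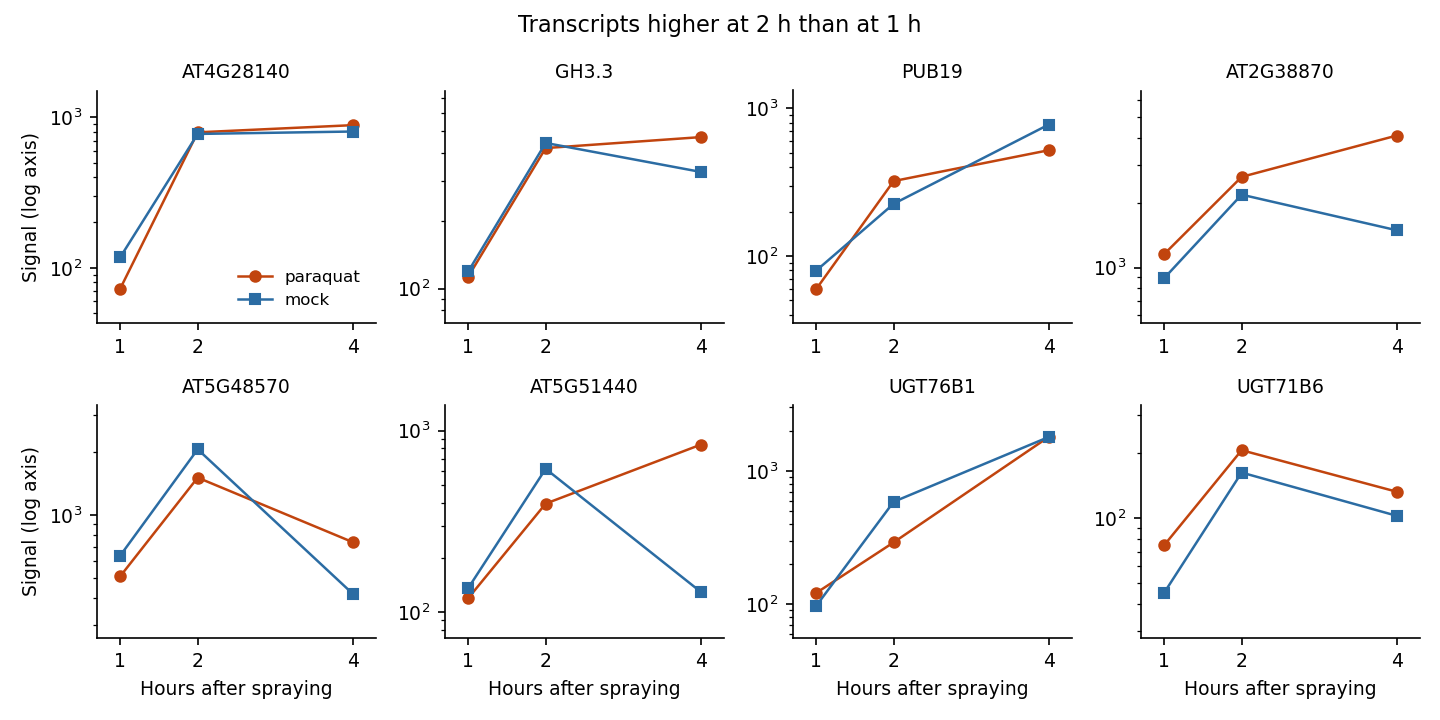
Signals of 8 genes higher at 2 h than at 1 h, on a log axis, over the hours after spraying (1, 2 and 4 h), with 1 array per point (circles paraquat, squares mock). Both 2 h points lie above both 1 h points in all 8 panels; at 4 h AT5G51440 is at 836 in paraquat and 130 in mock leaves, whereas UGT76B1 is at 1796 and 1794.

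The other named genes with large shared rises had varied or unknown roles. The lists of salicylic acid and defence genes and of wound and jasmonate genes had none of 3 tested members called each. AT2G38870, a protease inhibitor of the potato inhibitor class, had signals of 2635 in paraquat and 2179 in mock leaves at 2 h, against 1155 in paraquat and 893 in mock leaves at 1 h (mean 1.21 ± 0.10, adjusted p = 0.00029 by limma). AT3G16530 encodes a legume-type lectin and had a mean change of 1.18. AT1G14890, an invertase or pectin methylesterase inhibitor, was among the most even, with 566 in paraquat and 567 in mock leaves at 2 h, against 243 in paraquat and 240 in mock leaves at 1 h. AT2G39400, an alpha/beta hydrolase, had a mean change of 1.14. AT5G53710, AT1G20070, AT2G41730 and AT3G56260 are named only by locus, with mean changes from 1.495 (AT3G56260) to 1.86 (AT1G20070). The probe sets without a gene name with the largest shared rises were 257280_at and 260203_at. 257280_at passed the floor at 2 h alone, so the size of its rise is set in part by the pseudocount. It had 414 in paraquat and 286 in mock leaves at 2 h, against 6.04 in paraquat and 25.6 in mock leaves at 1 h (mean 2.95 ± 0.27). 260203_at had signals of 1850 in paraquat and 1331 in mock leaves at 2 h, against 324 in paraquat and 270 in mock leaves at 1 h.

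AT4G01870, a TolB-related gene, rose with unequal size in the 2 treatments. Its signals were 7238 in paraquat and 2020 in mock leaves at 2 h, against 1672 in paraquat and 844 in mock leaves at 1 h, changes of 2.09 in paraquat and 1.23 in mock leaves. The difference of 0.87 between treatments has no test on 4 arrays. For the 15 genes with the largest shared rises, mean changes were 1.12 to 2.69. All 15 were called, but only 5 of them in every alternative that tested them: GH3.3 and AT1G14890 in 13, and AT4G28140, AT5G53710 and AT1G20070 in 12, since a floor on all 4 arrays left these 3 out. AT5G53710, PUB19 and UGT71B6 passed the floor at 2 h alone. AT2G38870, AT3G16530 and AT2G39400 were each lost without mock 1 h, mock 2 h or paraquat 1 h. AT5G48570 was lost without either 1 h array and AT5G51440 without either 1 h array or mock 2 h. AT2G41730 and AT3G56260 were lost without paraquat 1 h, and UGT71B6 without mock 1 h.

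**Figure D4:**
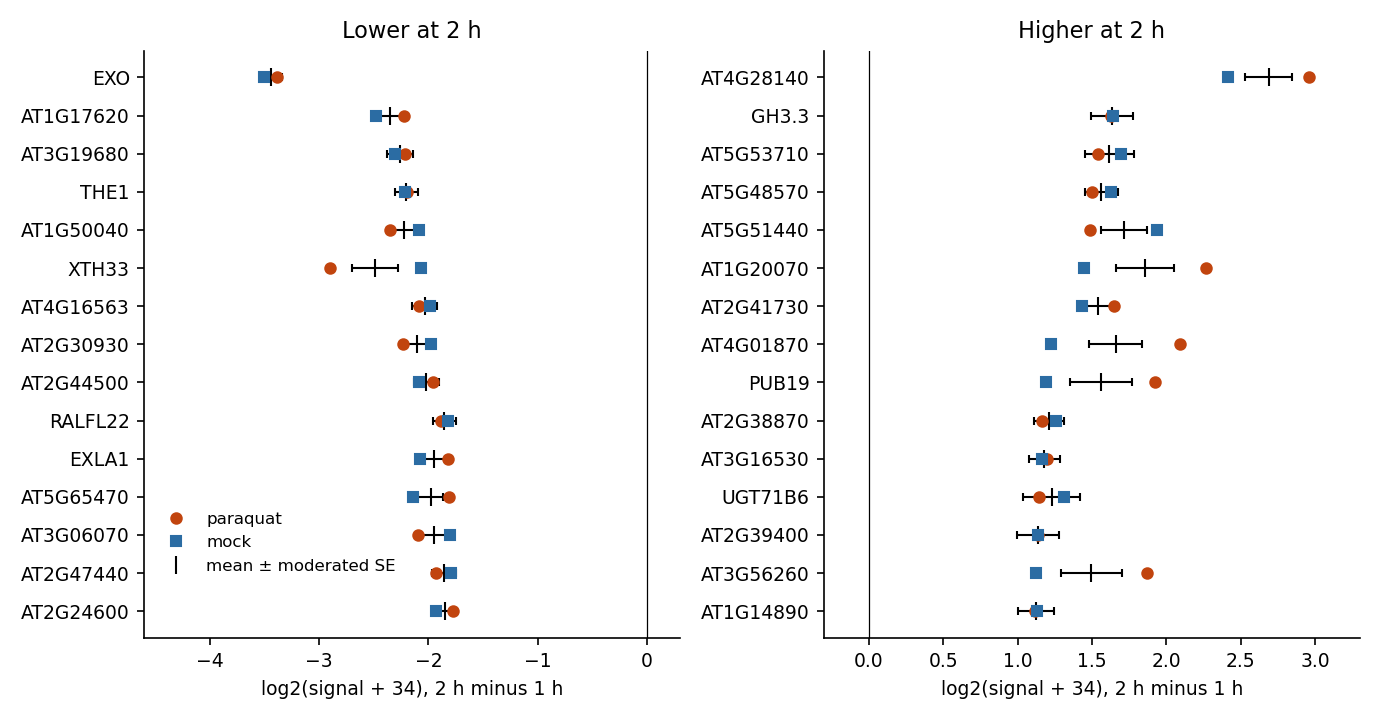
The 15 named genes with the largest shared fall (left) and rise (right), by log2(signal + 34), 2 h minus 1 h. Circles are paraquat leaves, squares mock leaves (1 array per hour each), and the black tick and bar are the mean and its moderated SE; the means run from -3.44 (EXO) to -1.85 (AT2G24600) on the left and from 1.12 (AT1G14890) to 2.69 (AT4G28140) on the right.

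Sugar-related transcripts were mixed. SWEET proteins carry sugars across membranes, and 8 were tested. This family was taken up only after changes had been seen, so its count is no independent evidence. SWEET1 (mean 0.71 ± 0.11) and SWEET2 (0.52 ± 0.13) were higher, and SAG29, a senescence-associated SWEET gene, was lower. SWEET1 was called without the mock 2 h array alone among the 4 fits that left out an array, and SWEET2 in none of them. SAG29 had signals of 9.68 in paraquat and 4.84 in mock leaves at 2 h, against 170 in paraquat and 92.0 in mock leaves at 1 h (mean -1.96 ± 0.29). Its 2 h signals were far below the floor of 86, which it passed at 1 h alone, and the call was lost without the paraquat 1 h array. In a list of genes that rise when sugar runs short, 4 of 10 tested members were lower and none higher (median -0.21). Among all tested probe sets, 5.75% were called lower and 4.62% higher. AT3G15450 had signals of 716 in paraquat and 352 in mock leaves at 2 h, against 1602 in paraquat and 531 in mock leaves at 1 h, and ATG8E (autophagy), BZIP53 (a transcription factor of starvation) and AT5G19120 fell by 0.67, 0.54 and 0.47 on the log2 scale. A single member was called lower without the mock 1 h array and none without any other of the 4 arrays.

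The list of singlet oxygen genes, taken from work on flu, had 4 of 8 tested members lower and none higher, against 5.75% lower and 4.62% higher over all tested probe sets. These were AT1G05575 (mean -1.04 ± 0.15), AT2G41640 (-0.81 ± 0.13), TET8 (-0.65 ± 0.09) and AT5G64870 (-0.55 ± 0.13). AT1G05575 had signals of 542 in paraquat and 319 in mock leaves at 2 h, against 953 in paraquat and 841 in mock leaves at 1 h, and at 4 h its treatments parted, with 1507 in paraquat and 156 in mock leaves. At most 1 member was called without any 1 array, and none without either paraquat array. Of 5 antioxidant enzymes, ATMDAR2 (a monodehydroascorbate reductase) was higher. It had signals of 4259 in paraquat and 2051 in mock leaves at 2 h, against 1849 in paraquat and 1216 in mock leaves at 1 h (mean 0.96 ± 0.12, adjusted p = 0.0021 by limma). That call was lost without the paraquat 1 h array.

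Some single genes of other lists also passed the test. HCT, which acts in lignin precursor synthesis, had signals of 2557 in paraquat and 2960 in mock leaves at 2 h, against 1196 in paraquat and 1422 in mock leaves at 1 h (mean 1.06 ± 0.10, adjusted p = 0.00044 by limma). The glutathione transferase GSTU27 had 1532 in paraquat and 1656 in mock leaves at 2 h, against 3048 and 3084 at 1 h (mean -0.93 ± 0.09), and was called in all alternatives. COR15A, a cold-induced protein of the chloroplast, had a mean change of -0.54 ± 0.12, and BIM1, a partner in brassinosteroid signalling, of 0.69 ± 0.15. The HCT call was lost without the paraquat 1 h array, and those of COR15A and BIM1 without any 1 of the 4.

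Genes of the photosynthetic machinery showed little shared movement. None of 11 nuclear photosynthesis genes, 9 genes of chlorophyll and carotenoid synthesis and 6 reference genes was called, with medians of -0.06, -0.16 and 0.05. Over all tested probe sets 10.4% were called, so lists this short could hold few calls or none at that share. None of the 69 probe sets of plastid-encoded genes was called either, but their changes differed in sign between treatments. In paraquat leaves 57 were higher and 12 lower at 2 h (median 0.23), and in mock leaves 17 were higher and 52 lower (median -0.11). For 45 of the 69 the change was positive in paraquat and negative in mock leaves, and for 5 the reverse. Over all tested probe sets, 67.1% had the same sign in both treatments, with medians of 0.03 in paraquat and 0.02 in mock leaves. The changes in paraquat leaves rest on the paraquat 1 h array, whose ribosomal RNA control was high, and its part in them was not tested; 7 plastid probe sets were called higher without the mock 1 h array, 2 without the mock 2 h array and none without either paraquat array.

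**Figure D5:**
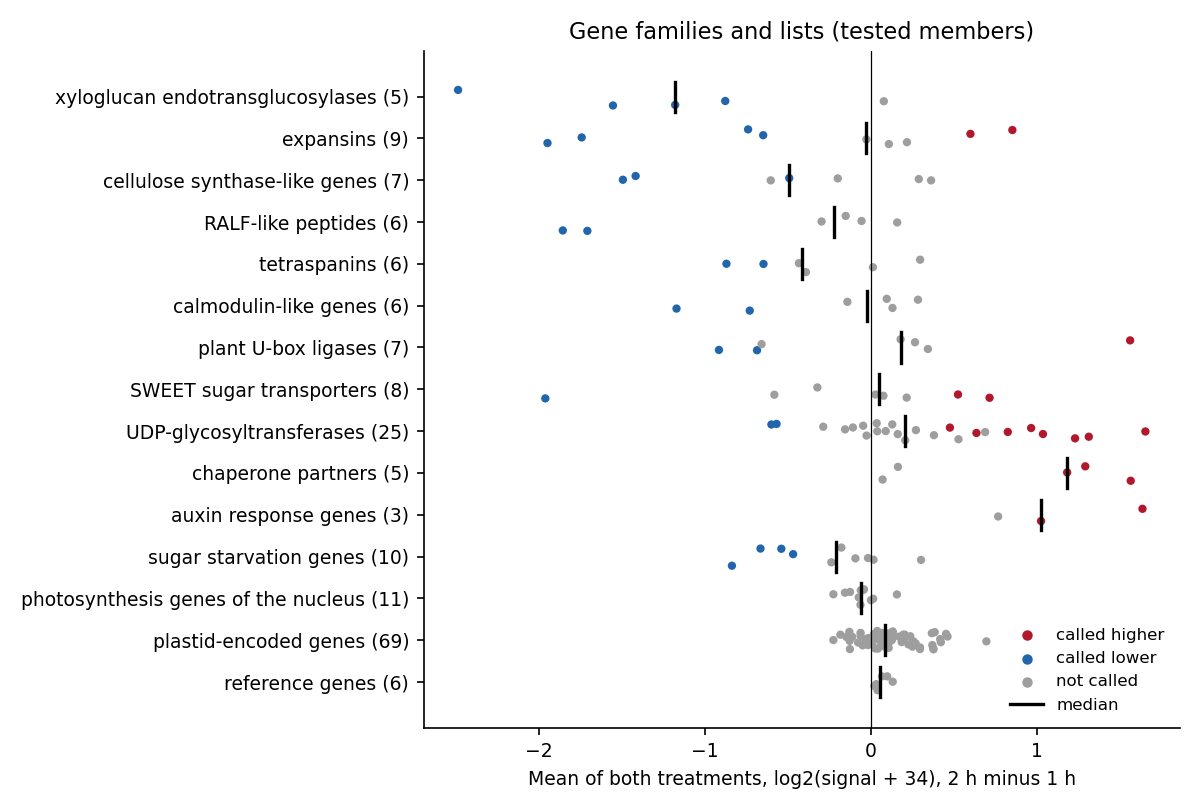
Mean change of both treatments, log2(signal + 34), 2 h minus 1 h, for each tested member of 15 gene families and lists (number of tested members in brackets). Red points were called higher, blue points lower and grey points not called; black bars are medians, from -1.18 for xyloglucan endotransglucosylases to 1.18 for chaperone partners.

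Markers of cell types that a leaf sample holds were measured in part. The guard cell gene FMA had signals of 260 in paraquat and 315 in mock leaves at 2 h, against 249 in paraquat and 320 in mock leaves at 1 h, and AT1G22690 had a mean change of -0.08. Neither was called, nor was either mesophyll marker measured, LHCB4.2 or RCA. The trichome gene TRY, a repressor of trichome fate, was higher (mean 1.22 ± 0.19, adjusted p = 0.0052 by limma), with 252 in paraquat and 229 in mock leaves at 2 h, against 111 in paraquat and 62.0 in mock leaves at 1 h. TRY was the only trichome marker with a probe set annotated to exactly 1 gene, and its call was lost without the mock 1 h array. The root marker EXPA7 was too low to be tested. Flower, vascular and meristem markers were not analysed here. In whole leaves, fewer cells of a type and less RNA per cell cannot be told apart. The clock gene GI, the only clock gene of its list with a probe set annotated to exactly 1 gene, had a mean change of 0.03. It was not called. Other clock or trichome genes may be on the array under probe sets without a gene name.

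Few transcripts changed 2-fold in only 1 treatment with the other going the opposite way. Of 134 probe sets 2-fold higher in paraquat leaves, 58 were higher by less than 2-fold in mock leaves and 13 were lower there. Of 142 that were 2-fold higher in mock leaves, 73 were higher by less than 2-fold in paraquat leaves and 6 were lower. For 2-fold falls the opposite sign was seen in mock leaves for 5 of 228 and in paraquat leaves for 13 of 276. With 4 arrays, a difference between treatments in the change from 1 to 2 h has no test.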

How the data were processed

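Samples were grouped by their titles. The deposited table holds linear signal intensities of 6 ATH1 arrays; MAS5 produced them, per the submitters' processing notes. Only relative levels remain after the authors' scaling. Signals were used as deposited. The 4 arrays of 1 and 2 h were fitted in limma 3.58.1 in R 4.3.3 (lmFit; eBayes with trend on) on log2(signal + 34), with treatment as block, 1 residual and 7.19 prior degrees of freedom, two-sided, with Benjamini-Hochberg adjustment at 0.05. Probe sets needed a signal above 86 on at least 2 arrays: the second-highest signal was 86.022 just inside and 85.996 just outside. The number of arrays limits precision. Each p-value and moderated SE rests on how far the treatments differed in their change and on variance shared between probe sets. A response to paraquat that differed by hour is part of that spread, and spread between replicate samples was not measured.

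Exactly 1 gene was named for 13513 of 22746 probe sets, several for 503 and none for 8730; 13508 of the 13513 matched the TAIR10.1 gene table. Gene lists are covered in part, and 67 of 92 had a tested member. A gene's brightest probe set stands for it in lists. Named genes are the 15 highest and 15 lowest by the smaller of the 2 treatments' changes, up to 4 members per list with called ones first, and the 5 highest and 5 lowest by paraquat minus mock change; further called list members were named after their values were seen. Members and lists were chosen with earlier results of these data known, and 21 families only after changes had been seen. The fit was tested on simulated data.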

Additional observations from a re-analysis of the deposited data

Results flagged for a closer look

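For 8 named genes the change from 1 to 2 h had opposite signs in the 2 treatments, and these are among the 10 with the largest difference between treatments. The difference was not tested, since 4 arrays leave no degree of freedom for it. Each difference is the change in paraquat minus the change in mock leaves, on the log2(signal + 34) scale. It was 2.02 for the plastid gene ndhH, a subunit of the NDH complex, with signals of 1085 in paraquat and 666 in mock leaves at 2 h, against 394 in paraquat and 1055 in mock leaves at 1 h. AT3G20340 differed by 1.84, with 1002 in paraquat and 62.6 in mock leaves at 2 h, against 354 in paraquat and 95.9 in mock leaves at 1 h. The other 6 were dimmer, each with at least 1 signal under 86. AT1G49110 differed by 2.33, AT2G14640 by 2.05 and AT3G54060 by 1.81, while the change was lower in paraquat leaves for AT3G15570 (-2.49), AT5G44500 (-1.84) and AT3G28510 (-1.47). The other 2 of the 10, AT4G37900 and AT1G30700, had a positive change in both treatments. AT4G37900 passed the floor at 2 h alone, with 89.7 in paraquat and 152 in mock leaves at 2 h, against 68.8 in paraquat and 21.6 in mock leaves at 1 h.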

How the results depend on the processing

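Of the 449 genes followed, 97 were called and none of these changed sign under any alternative, while 7 of the 1452 called probe sets did so in at least 1. Of the 97, 70 lost the call under at least 1 alternative. Over all probe sets, 145 calls were kept in every alternative that tested them. Against 647 called higher and 805 lower, no filter on low signals gave 200 and 364, no variance trend 290 and 470, no treatment block 248 and 447, and all 6 arrays 320 and 496. Leaving out 1 array of the 4, in the fit on the other arrays, gave 77 to 159 higher and 142 to 309 lower; of the calls of the fit on all 6 arrays, 319 higher and 496 lower were shared with those reported. Against 63 higher and 156 lower by 2-fold in both treatments, a 4 times larger pseudocount gave 24 and 98, a 1.5-fold limit 270 and 457, and a 3-fold limit 11 and 39. Counts in single treatments were added after seeing the data: mock leaves alone gave 142 higher and 276 lower, and paraquat leaves alone 134 higher. The smaller pseudocount, the stricter filter and both other scalings moved none of these 4 counts by over 1.5 times, but centring on the 75th percentile took the early stress transcription factors called higher to 1, against 3, and the WRKY genes to 0, against 2; the smaller pseudocount took the WRKY genes to 1. The cause of these shifts was not tested, except that a stricter fold, another set of arrays and more tested probe sets change the counts by construction. The reported fit pairs the hours within each treatment through the block; the labels number no replicates, so no other pairing could be made. A search for promoter motifs was not run, since no promoter sequences were used here. Dim probe sets limit the size of falls such as that of SAG29.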
